A study of Mus musculus with 2 samples.

Results

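The genes described here are the 9 members of the MHC class II presentation pathway read in the palatal gingiva of mice from 2 single-cell RNA-seq libraries: H2-Aa, H2-Ab1, H2-Eb1, Cd74, Ciita, H2-DMa, H2-DMb1, H2-Oa and H2-Ob. They were taken by symbol from the 32285 genes of the count tables, and each was present. Levels were read from cells with at least 800 detected genes, by cell class and by library, with the RNA that leaks between cells measured alongside.

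Female wild-type C57BL/6 mice (C57Bl6/J) aged 8 to 12 weeks received 3 µl of 1 µg/ml of a TLR9 ligand (CpG ODN, an unmethylated DNA oligonucleotide) or of a TLR2/4 ligand (Porphyromonas gingivalis LPS) on the palate, which was covered for 1 h. Gingiva was taken at day 4, and 2000 to 3000 cells from each of 4 mice were combined into 1 library per ligand, so both libraries come from ligand-treated tissue and neither is an untreated control. The animals in a library cannot be separated. Because each ligand has 1 library, no difference between ligands was tested, and each interval below (95%, exact Poisson for levels, binomial for shares, conditional binomial for ratios) covers counting error only.

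The CpG ODN library held 6219 barcodes and the LPS library 2016, of which 4888 and 1277 were kept, with medians of 11077.5 and 22680 unique molecular identifiers (UMIs, 1 per captured RNA molecule) a cell. Of the barcode sequences, 5 occurred in both libraries, 1 of them among kept cells. Cells were grouped into 24 clusters without using the class II genes, and classes were named from other markers. The class II genes were mostly in cells of far lower depth than the epithelium: B-like cells had median UMI counts of 2149.5 and 3157 against 13240 and 27194 in epithelial-like cells. Levels are given as UMIs per 1000000 UMIs of the class (CPM). The assay counts the 3′ ends of transcripts, so counts do not scale with transcript length, and levels of different genes are set side by side on that scale.

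MHC class II molecules are surface heterodimers of an α and a β chain that show peptides from endocytosed proteins to CD4 T cells. The chains assemble with the invariant chain Cd74, whose remnant CLIP is exchanged for peptide by H2-DM, and H2-O restrains H2-DM, above all in B cells. Ciita is the coactivator that switches the whole set on. It is recruited to the X and Y boxes of their promoters, which are bound by RFX and NF-Y. B cells, dendritic cells and macrophages are the usual carriers, and other cells can be induced by interferon-γ. C57BL/6 mice make the I-A dimer (H2-Aa with H2-Ab1) but lack surface I-E, since their H2-Ea gene is defective while H2-Eb1 is transcribed.

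Of the 9 genes, 7 lie within the H2 region of chromosome 17 (GRCm38): H2-Oa at chr17:34092340-34095234, H2-DMa at chr17:34119541-34139101, H2-DMb1 at chr17:34153072-34160230, H2-Ob at chr17:34238903-34254414, H2-Ab1 at chr17:34257689-34269419, H2-Aa on the minus strand at chr17:34282744-34287823, and H2-Eb1 at chr17:34305867-34316674. Ciita lies at chr16:10480059-10528418, and Cd74 lies outside both chromosomes. The RefSeq promoter table (GRCm38.p6) matched 6 of the 9 and held no entry for H2-Ab1, Cd74 and Ciita. The 150 bases before the RefSeq start are printed for 5 of them, 5′ to 3′ on the gene's strand, to show the letters of the X and Y boxes named above. Capitals mark the Y box core GATTGG (or its reverse complement CCAATC) and the X box pattern, which is AGNAAC, any 2 bases and ATG. Both were searched on both strands, and their letters were chosen after the sequences were seen.
H2-Aa, chr17:34287824-34287973, minus strand: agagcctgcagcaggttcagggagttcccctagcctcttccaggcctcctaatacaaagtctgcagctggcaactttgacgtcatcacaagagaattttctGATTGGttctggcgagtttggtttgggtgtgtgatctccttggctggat
H2-Eb1, chr17:34305717-34305866, plus strand: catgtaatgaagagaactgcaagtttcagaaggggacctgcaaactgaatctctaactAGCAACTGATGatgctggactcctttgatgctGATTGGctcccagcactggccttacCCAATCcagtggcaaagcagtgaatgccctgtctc
H2-DMb1, chr17:34153041-34153190, plus strand: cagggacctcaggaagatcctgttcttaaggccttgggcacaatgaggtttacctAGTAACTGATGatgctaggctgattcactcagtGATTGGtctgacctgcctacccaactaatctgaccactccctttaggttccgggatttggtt
H2-Ob, chr17:34238755-34238904, plus strand: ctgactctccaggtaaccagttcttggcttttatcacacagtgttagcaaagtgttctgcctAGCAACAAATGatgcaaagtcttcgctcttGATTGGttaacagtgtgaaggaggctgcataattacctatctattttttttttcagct
H2-Oa, chr17:34092229-34092378, plus strand: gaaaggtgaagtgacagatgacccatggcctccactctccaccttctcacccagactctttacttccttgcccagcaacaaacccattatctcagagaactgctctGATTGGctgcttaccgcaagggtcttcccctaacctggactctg

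The Y box core began 44 bases before the start of H2-Oa, 49 before H2-Aa, 58 before H2-Ob, 60 before H2-Eb1 and 62 before H2-DMb1. H2-Eb1 had a further copy on the opposite strand 35 bases before its start. The X box pattern began 88 bases before H2-Ob, 92 before H2-Eb1 and 95 before H2-DMb1, and the 2 patterns did not overlap. H2-DMa has 2 annotated starts, of which 1 window had no match and the other held the Y box core 199 bases before the start. Among 32851 RefSeq windows of 300 bases, 16.1% held GATTGG on either strand, 0.895% held the X box pattern and 0.134% held both. A match is a description of the letters and not a measured site.

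**Figure D1:**
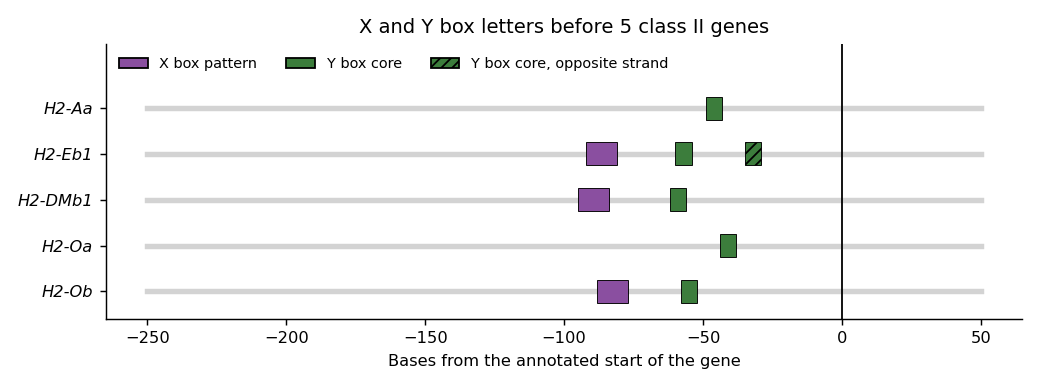
Position of the Y box core (green, hatched on the opposite strand) and the X box pattern (purple) in the promoter windows of 5 class II genes, in bases from the annotated start. Each of the 5 windows holds the Y box core within 62 bases before the start, and 3 hold the X box pattern upstream of it.

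Class II RNA in the gingiva lay mainly in B-lineage and myeloid cells, which made up a small share of the cells. In the CpG ODN library, germinal-centre B-like cells held 52.2% of the UMIs of the 9 genes, B-like cells 31.5%, myeloid-like cells 9.03% and epithelial-like cells 3.64%. In the LPS library, B-like cells held 68.6%, myeloid-like cells 20.9%, germinal-centre B-like cells 6.80% and epithelial-like cells 2.33%. The order of the B-lineage classes after CpG ODN may depend on the filter on detected genes. With 500 detected genes required, B-like cells of that library (734 cells) held 39221 UMIs of the 9 genes, against 16856 here. Germinal-centre B-like cells held 27924 here. With 500 required they numbered 269 cells, and their class II UMIs were not read. Over all kept cells the 9 genes summed to 758 CPM after CpG ODN and 309 CPM after LPS, a ratio of 2.45 (2.4 to 2.5). The CpG ODN library had 237 germinal-centre B-like cells of 4888 and the LPS library 4 of 1277, so the libraries differed in the cells that carry the genes.

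The members did not share the same carriers. H2-Oa and H2-Ob, the H2-O chains, were found almost wholly in B-lineage cells: myeloid-like cells held 0.225% and 0.327% of their UMIs after CpG ODN, and 2.17% and 0.617% after LPS. Of H2-DMb1, the β chain of the peptide exchange factor, myeloid-like cells held 24.0% and 28.8%. Epithelial-like cells held 9.51% and 20.3% of H2-DMa and 14.1% and 23.2% of H2-DMb1, against 3.40% and 1.03% of Cd74.

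Ordered by the sum of the 9 genes over 9 classes, leaving out the mural-like, Schwann-like, red cell-like, Retnlg-led, unnamed and set-apart cells, the CpG ODN library ran from Ccl4-led myeloid cells (46832 CPM) through B-like (24781), germinal-centre B-like (14096) and macrophage-like cells (12658), whose counting intervals did not overlap. T-like (110), endothelial-like (79.9), fibroblast-like (74.0) and simple epithelial-like cells (70.5) had overlapping intervals, and epithelial-like cells were the lowest of these 9 classes at 30.7 CPM. In the LPS library the order began the same way, with Ccl4-led myeloid cells at 69599 CPM and B-like cells at 33262, while germinal-centre B-like (16059) and macrophage-like cells (14751) overlapped. Endothelial-like (133), T-like (115) and fibroblast-like cells (112) overlapped as well, and epithelial-like cells were again the lowest of these 9 at 8.05 CPM. Each of the 9 members was at least 10 times higher in B-like than in epithelial-like cells in both libraries, as were 5.24% of the genes tested after CpG ODN and 4.15% after LPS. Ciita and H2-Oa in both libraries, and H2-Ob after LPS, reached the 20 UMIs required only through B-like cells. Nothing is read from their place among the 9.

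**Figure D2:**
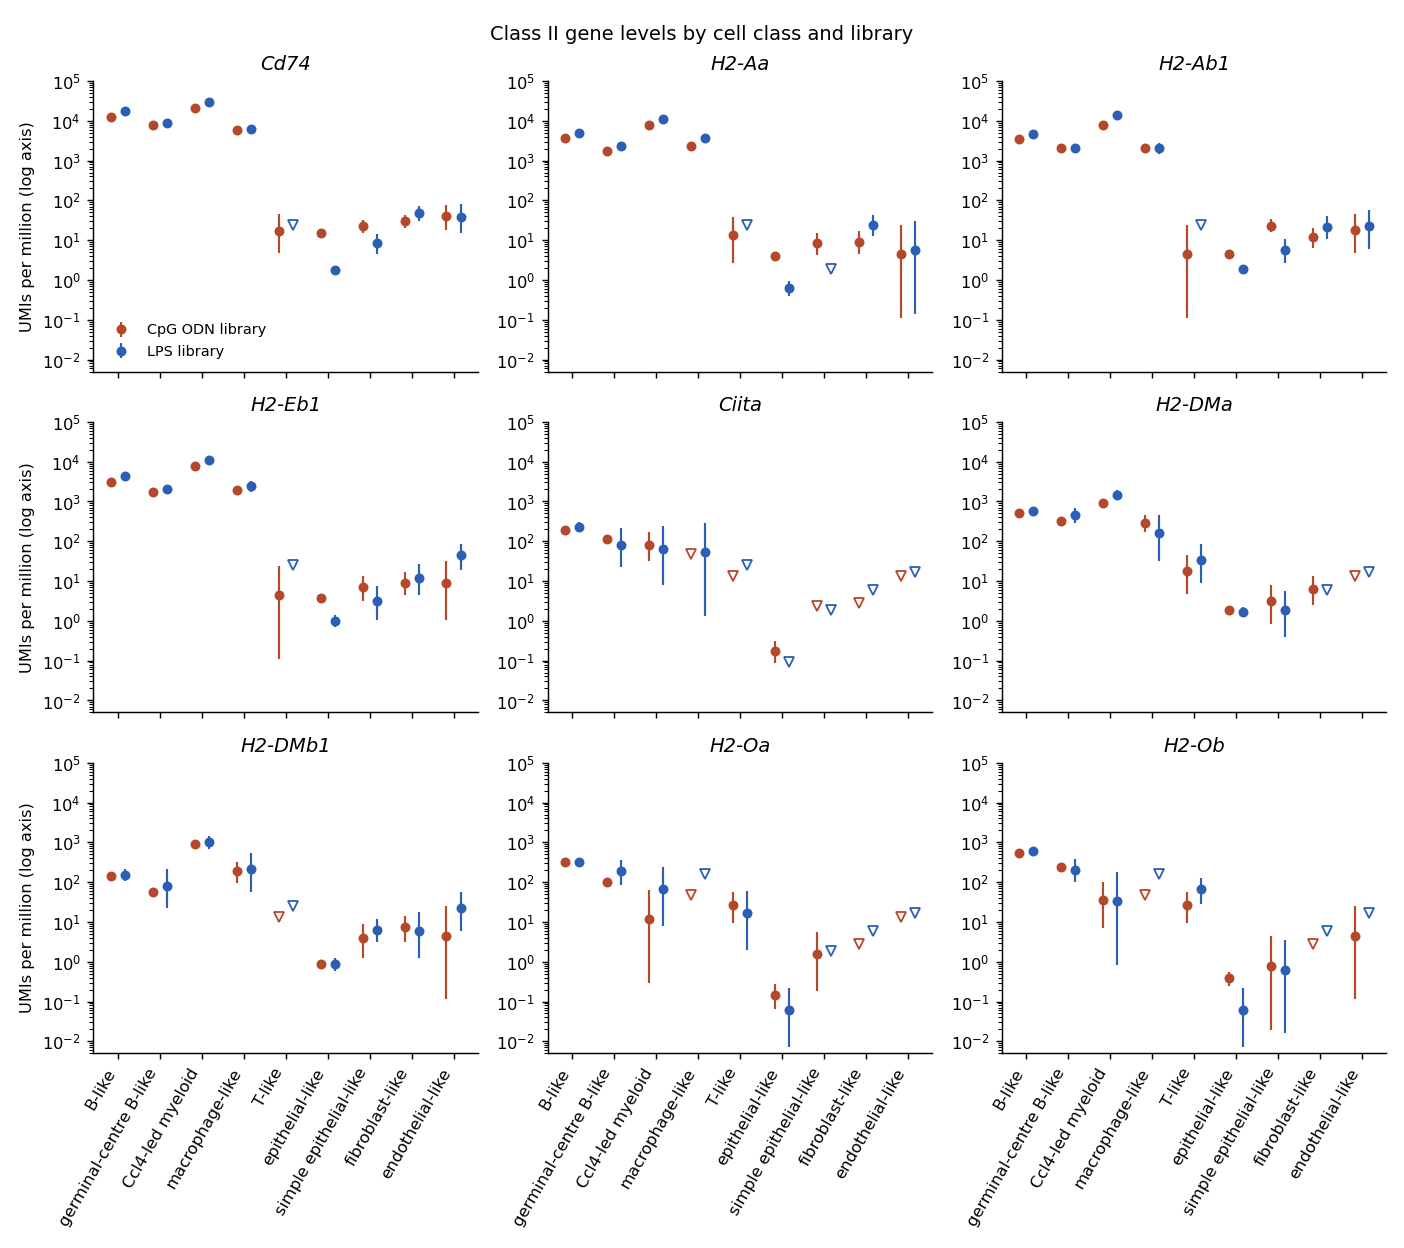
Level of each of the 9 class II genes (UMIs per 1000000, log axis) in 9 cell classes of the CpG ODN (red) and LPS (blue) libraries, with 95% Poisson intervals; open triangles mark the limit that a count of 0 allows (3 UMIs). The chain genes and Cd74 are above 1000 CPM in B-like, germinal-centre B-like, Ccl4-led and macrophage-like cells and below 100 CPM in the other 5 classes, and the counted levels of H2-Oa and H2-Ob are above 100 CPM in B-like and germinal-centre B-like cells alone among these classes.

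B-like cells, 284 in the CpG ODN library and 69 in the other, carried all 10 B cell markers and were led by Ighd, Ighm, Bank1 and Fcmr. The chain genes and Cd74 were lower after CpG ODN, at about 0.72 to 0.77 of their LPS level, and the other 5 genes had ratios nearer to 1 whose intervals included 1. Cd74, whose gene lies at chr18:60803848-60812652, stood at 12793 CPM (8702 UMIs) after CpG ODN and 17567 CPM (4160 UMIs) after LPS, a ratio of 0.728 (0.702 to 0.756). It was found in 284 of 284 and 69 of 69 cells.

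The α chain H2-Aa stood at 3762 and 4881 CPM (ratio 0.771, 0.719 to 0.827). Its partner H2-Ab1 stood at 3499 and 4700 CPM (ratio 0.744, 0.693 to 0.800). H2-Eb1, the β chain without an α partner in this strain, stood at 3037 and 4244 CPM (ratio 0.716, 0.663 to 0.773). The 3 chain genes were thus at like levels in each library. All 4 of Cd74, H2-Aa, H2-Ab1 and H2-Eb1 were detected together in 278 of 284 and 68 of 69 cells.

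The coactivator Ciita was far less abundant, at 194 CPM (132 UMIs) after CpG ODN and 228 CPM (54 UMIs) after LPS, and its ratio of 0.851 (0.616 to 1.19) included 1. H2-DMa stood at 503 and 574 CPM (ratio 0.876, 0.716 to 1.08) and H2-DMb1 at 144 and 152 CPM (ratio 0.948, 0.641 to 1.43). H2-Oa stood at 313 and 325 CPM (ratio 0.963, 0.739 to 1.27) and H2-Ob at 535 and 591 CPM (ratio 0.905, 0.743 to 1.11). The intervals of these 5 ratios included 1, so a difference was not detectable at this depth. With 1200 detected genes required, which changed the cells of the class as given in the next paragraph, all 5 intervals lay below 1, at ratios of 0.342 (H2-Oa) to 0.595 (H2-DMa).

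Summed over the 9 genes, B-like cells held 24781 CPM after CpG ODN and 33262 CPM after LPS, a ratio of 0.745 (0.725 to 0.765). All 9 ratios were below 1, as were 46.9% of the 4624 genes with at least 20 UMIs in this class. None of the 9 was at least 1.5 times lower or higher after CpG ODN, against 11.8% and 16.1% of genes. The median log2 ratio was -0.23 over the members and 0.04 over all genes. The abundant B cell transcripts Igkc and Cd79a also had ratios below 1, and other abundant B cell transcripts are not listed here. The immunoglobulin light chain Igkc stood at 5690 and 8112 CPM (ratio 0.701, 0.664 to 0.741). Cd79a, a chain of the B cell receptor complex, stood at 2658 and 3252 CPM (ratio 0.817, 0.751 to 0.891). Pax5, the B lineage factor, went the other way, at 290 and 190 CPM (ratio 1.52, 1.10 to 2.16). The part of composition or depth in these ratios was not tested. With B-like and germinal-centre B-like cells joined, the summed ratio was 0.555, and with 1200 detected genes required it was 0.551. At that setting 220 of the 243 B-like CpG ODN cells were the germinal-centre B-like cells, and 32 of the 69 LPS B-like cells remained.

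Cell by cell, the 4 abundant genes (Cd74, H2-Aa, H2-Ab1 and H2-Eb1) took a median of 234 UMIs of every 10000 in B-like cells after CpG ODN, from 25.8 to 488. After LPS the median was 314, from 46.6 to 529. The cells of the 2 libraries overlapped over most of this range.

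**Figure D3:**
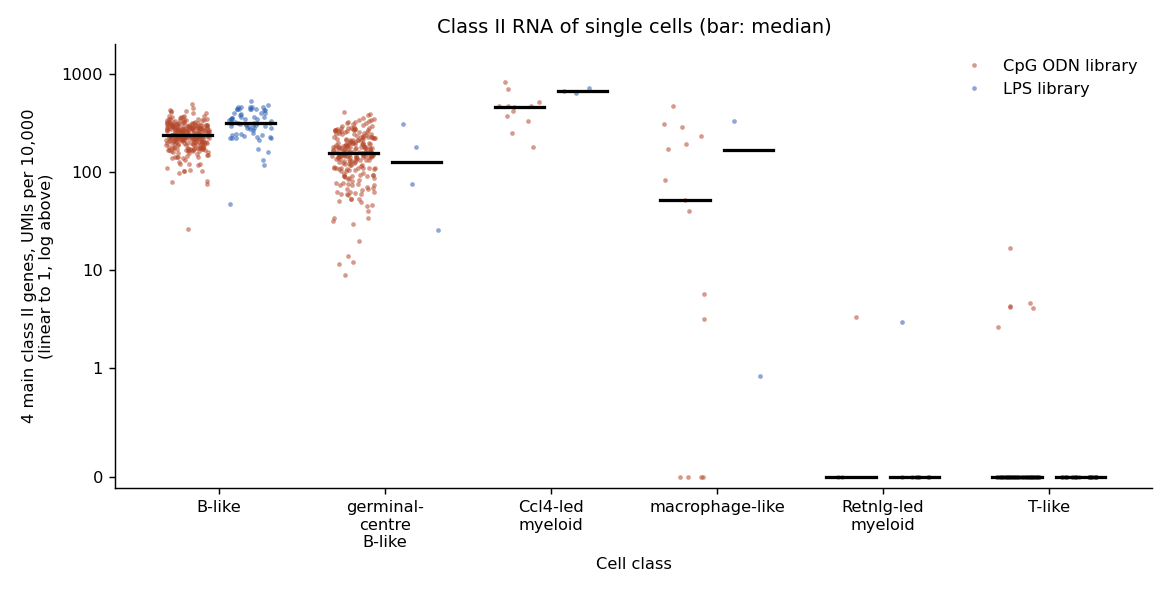
UMIs of Cd74, H2-Aa, H2-Ab1 and H2-Eb1 per 10000 UMIs in single cells (points; axis linear to 1 and logarithmic above) of 6 immune classes in the CpG ODN (red) and LPS (blue) libraries, with the median as a bar. B-like cells form 1 cloud in each library, germinal-centre B-like cells reach lower, macrophage-like cells run from 0 upward, and most T-like and Retnlg-led cells are at 0.

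Germinal-centre B-like cells carried all 7 markers of their kind and were led by Ighg2b, Hist1h2ap, Jchain, Pclaf and Rgs13, a mix of germinal-centre, division and antibody genes. They held less class II RNA than B-like cells per UMI. In the CpG ODN library, where the class has 237 cells, Cd74 stood at 7690 CPM (7568 to 7813) against 12793 CPM (12526 to 13065) in B-like cells. H2-Aa stood at 1772 CPM, H2-Ab1 at 2060 and H2-Eb1 at 1732, each with an interval below that of B-like cells.

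The regulators had the same order: Ciita stood at 111 CPM (96.9 to 127) against 194 (162 to 230), H2-DMa at 327 against 503, H2-DMb1 at 56.5 against 144, H2-Oa at 101 against 313 and H2-Ob at 247 against 535. Per cell, however, these cells had a median of 5966 UMIs against 2149.5, and Ciita was detected in 130 of 237 of them against 102 of 284 B-like cells. The 4 abundant genes took a median of 156 UMIs of every 10000. Prdm1, which shuts off Ciita as B cells become plasma cells, had 9 UMIs in 5 of the 237 cells, while Pax5 stood at 215 CPM.

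In the LPS library the class had 4 cells, of which 1 held 48.0% of the 781 UMIs of the 9 genes. Cd74 stood at 8595 CPM there (ratio 0.895, 0.812 to 0.988), H2-Aa at 2344 (0.756, 0.627 to 0.919) and H2-Ab1 at 2036 (1.01, 0.829 to 1.25). Ciita had 4 UMIs and H2-Oa 9. These values describe 4 cells.

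Myeloid-like cells were few, 30 after CpG ODN and 13 after LPS, and fell into 3 parts with very different class II content. The summed ratio over all of them was 1.09 (1.04 to 1.15), but the parts were mixed in different proportions, and it was 0.665 without the Retnlg-led cells. They are therefore described apart.

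The Ccl4-led part (12 and 3 cells) was led by the chemokine gene Ccl4 with Lyz2, Il1b, Ccl3 and C1qb, and it had the highest summed class II level of the 9 classes, although the values of Ciita, H2-Oa and H2-Ob, on at most 7 UMIs a library, were below those in B-like cells. It was given no cell type name, although it carried 7 macrophage markers, the same 7 as macrophage-like cells. Macrophage markers (2) and general myeloid markers (3: Lyz2, Tyrobp and Fcer1g) were both found among its 10 leading genes. Cd207, the Langerhans cell lectin langerin, was among them, but 48 of its 53 UMIs after CpG ODN and 29 of 31 after LPS came from 1 cell in each library. That cell also held Epcam (12 and 15 UMIs) and took 698 and 712 UMIs of every 10000 for the 4 abundant class II genes.

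In these cells Cd74 stood at 21146 CPM after CpG ODN and 30509 CPM after LPS (ratio 0.693, 0.640 to 0.751). H2-Aa stood at 8052 and 11046 CPM (0.729, 0.639 to 0.833), H2-Ab1 at 8052 and 14038 (0.574, 0.508 to 0.649) and H2-Eb1 at 7632 and 11342 (0.673, 0.590 to 0.769). H2-DMa stood at 899 and 1479 CPM (0.607, 0.415 to 0.898) and H2-DMb1 at 922 and 1019 (0.905, 0.590 to 1.42). The other 3 members had under 20 UMIs: Ciita 7 and 2, H2-Oa 1 and 2, and H2-Ob 3 and 1.

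Of the 6 members with enough UMIs, 6 had a ratio below 1, as did 43.2% of 778 genes, and 2 (H2-Ab1 and H2-DMa) were at least 1.5 times lower after CpG ODN, against 15% of genes. The single cells overlapped: the 4 abundant genes took 180 to 810 UMIs of every 10000 in the 12 CpG ODN cells, with a median of 459, and 639, 658 and 712 in the 3 LPS cells. Lyz2 was 3.79 times higher after CpG ODN in the same cells (5730 and 1512 CPM, 2.80 to 5.24), so the cells of the 2 libraries differed in more than class II genes, and the part of this difference in the ratios was not tested.

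Macrophage-like cells (15 and 2, led by C1qa, C1qb and C1qc) varied widely. After CpG ODN all 4 abundant genes were detected in 8 of the 15 cells and none of the 4 in 4 of them. Cd74 stood at 5798 CPM (371 UMIs) after CpG ODN and 6142 CPM (117 UMIs) after LPS, where 116 UMIs came from 1 of the 2 cells. H2-Aa stood at 2344 and 3727 CPM, H2-Ab1 at 2078 and 2047, and H2-Eb1 at 1969 and 2415. H2-DMa had 18 and 3 UMIs, H2-DMb1 12 and 4, Ciita 0 and 1, and H2-Oa and H2-Ob 0 in both libraries, which allows up to 46.9 and 157 CPM. Of the 5 members with enough UMIs, 1 (H2-Aa) was at least 1.5 times lower after CpG ODN and 1 (H2-DMa, 1.79, 0.521 to 9.47) higher, against 16.4% and 28.2% of genes. H2-DMa had enough UMIs mainly through its 18 after CpG ODN, so nothing is read from its place as higher.

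The Retnlg-led part (3 and 8 cells), which carries a neutrophil gene among its leaders, had few class II UMIs, with 6 summed over the 9 genes in each library, or 606 CPM (222 to 1319) and 161 CPM (59.2 to 351). Cd74 had 1 UMI after CpG ODN and 3 after LPS, and H2-Aa, H2-Ab1, H2-Eb1 and Ciita had 0. H2-DMa had 4 and 2 UMIs, or 404 CPM (110 to 1034) and 53.8 CPM (6.51 to 194), and H2-DMb1 had 1 and 1.

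The β chains of H2-DM differed between Ccl4-led and B-like cells. H2-DMb1 was higher in Ccl4-led cells (922 CPM, 730 to 1149) than in B-like cells (144 CPM, 117 to 176) after CpG ODN, and likewise after LPS (1019 CPM, 692 to 1447, against 152 CPM, 106 to 210). Its neighbouring paralog H2-DMb2 went the other way, at 70.0 CPM (25.7 to 152) against 453 CPM (404 to 506) after CpG ODN and 65.8 CPM (7.96 to 238) against 566 CPM (474 to 670) after LPS. In macrophage-like cells H2-DMb1 stood at 188 CPM (96.9 to 328) and 210 CPM (57.2 to 538), which overlapped B-like cells. The 2 genes are close copies, and how reads shared between them were counted is a limit on both values.

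**Figure D4:**
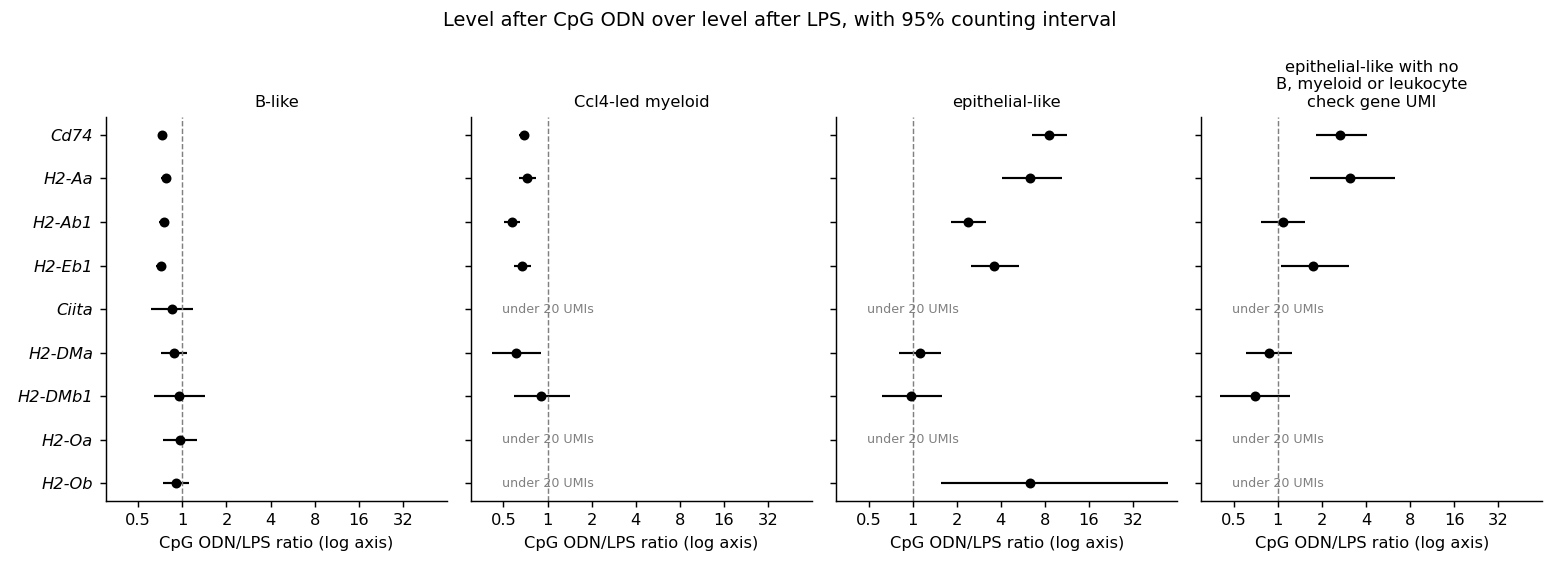
CpG ODN/LPS ratio (log axis) of each class II gene with its 95% counting interval in B-like, Ccl4-led myeloid and epithelial-like cells and in epithelial-like cells without a UMI of the immune check genes; genes with under 20 UMIs are left blank. The ratios lie below 1 in B-like and Ccl4-led cells, and the 4 abundant genes lie above 1 in epithelial-like cells, closer to 1 once cells with check genes are left out.

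T-like cells (75 and 22), which in mice should lack class II proteins, served as the reference for free RNA, the RNA of broken cells that enters other droplets. Cd74 had 4 UMIs in 4 of 75 cells after CpG ODN (17.5 CPM, 4.78 to 44.9) and 0 of 22 cells after LPS, which allows up to 24.7 CPM. Ciita had 0 UMIs in both libraries. H2-Oa had 6 and 2 UMIs, H2-Ob 6 and 8 (5 of the 8 in 1 cell) and H2-DMa 4 and 4, so their counts in T-like cells were at or above that of Cd74, whereas B-lineage cells held 1.73 and 1.88 UMIs of H2-Oa for every 100 of Cd74.

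Epithelial-like cells (3691 and 958), the keratinocytes that make up 75.5% and 75% of the cells, held class II RNA at a very low level that was higher after CpG ODN for the chain genes and Cd74. Cd74 stood at 15 CPM (952 UMIs) after CpG ODN and 1.77 CPM (59 UMIs) after LPS, a ratio of 8.49 (6.53 to 11.2). H2-Aa had 252 and 21 UMIs (ratio 6.32, 4.04 to 10.4), H2-Eb1 231 and 34 (3.58, 2.49 to 5.29) and H2-Ab1 291 and 64 (2.39, 1.82 to 3.19). H2-DMa, at 1.91 and 1.71 CPM (1.12, 0.809 to 1.56), and H2-DMb1, at 0.853 and 0.871 CPM (0.980, 0.613 to 1.60), had ratios near 1.

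The remaining members were scarcer. H2-Ob had 24 and 2 UMIs (6.32, 1.57 to 55.1), H2-Oa 9 and 2, and Ciita 11 and 0, of which 2 and 0 were in cells without a check gene UMI (the immune genes named below). Of the 7 members with at least 20 UMIs, 5 were at least 1.5 times higher after CpG ODN, against 3.65% of 13613 genes. H2-Ob, 1 of the 5, passed that filter only through the CpG ODN library, where it is high, so nothing is read from its place among them.

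In the CpG ODN library, most of the RNA of the 4 abundant genes lay in few cells that also held immune RNA. After CpG ODN, 21 of the 3691 cells (0.569%) had 10 or more UMIs of the 4 abundant genes and held 70.0% of their 1726 UMIs, and each of the 21 had UMIs of at least 3 of 17 check genes of B, myeloid or other leukocytes that keratinocytes should lack. The cell with the most held 28.0% of the Cd74 UMIs. After LPS, 1 of 958 cells passed that level and held 7.30% of 178 UMIs, and 117 of the 178 lay in cells without a check gene UMI. The B cell check genes (Cd79a, Cd79b, Ms4a1, Ighm, Igkc and Cd37) summed, in epithelial-like cells, to 674 UMIs in the CpG ODN library and 37 in the LPS library, a ratio of 9.59 (6.89 to 13.7) close to that of Cd74.

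In the 3264 and 871 epithelial-like cells without any check gene UMI, Cd74 had 156 and 32 UMIs, or 2.89 and 1.08 CPM (ratio 2.67, 1.82 to 4.04). H2-Aa had 68 and 12 UMIs (3.10, 1.67 to 6.30), H2-Eb1 64 and 20 (1.75, 1.05 to 3.06) and H2-Ab1 105 and 53 (1.08, 0.772 to 1.54). H2-DMa had 84 and 53 UMIs (0.868, 0.608 to 1.25) and H2-DMb1 33 and 26 (0.695, 0.403 to 1.21). Of these 6 members, 3 were at least 1.5 times higher after CpG ODN, against 3.13% of genes. H2-Aa, 1 of the 3, passed the filter of 20 UMIs only through the CpG ODN library, where it is high. Nothing is read from its place among them. The summed ratio of the 9 genes was 3.82 in all epithelial-like cells and 1.44 in these.

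The share of epithelial-like cells with a class II UMI was read against T-like cells of the same library. A UMI of Cd74 was found, among epithelial-like cells, in 5.74% in the CpG ODN library and in 4.80% in the LPS library, at median depths of 13240 and 27194 UMIs, against 5.33% of T-like cells and 0 of 22, at 2739 and 5203 UMIs. With every cell thinned to 1500 UMIs, the share was 0.949% and 0.231% in epithelial-like cells and 3.15% in T-like cells of the CpG ODN library. For H2-DMa the thinned share was 0.325% and 0.311% in epithelial-like cells, against 2.84% and 4.29% in T-like cells. The thinned Cd74 share after CpG ODN was below that of T-like cells, which rests on 4 UMIs, so this share alone is not read as expression; the unthinned share was not below it. After LPS no such reading was made for Cd74, since 0 of 22 T-like cells (a floor of 3 of 22) allow a share of up to 13.6%. For H2-DMa the T-like shares rest on 4 UMIs in each library, and nothing is read from them.

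The proportions of the genes were not those of B cell RNA throughout. Had all class II UMIs of epithelial-like cells come from B-lineage and myeloid cells in step with the check genes, 628 of 952 Cd74 UMIs would be accounted for after CpG ODN, and 65.2 against the 59 counted after LPS. In T-like cells it gave far more than was counted, 59.5 against 4 Cd74 UMIs after CpG ODN and 33.9 against 0 after LPS. The B check genes had 75 and 33 UMIs in T-like cells, and the share that these cells made themselves was not tested. The computed values are therefore not an estimate of free RNA in every class. For H2-DMa the same computation gave 26.4 of 121 and 2.61 of 57, and for H2-DMb1 9.12 of 54 and 1.27 of 29. For H2-Ab1 it gave 181 of 291 and 22.2 of 64, and for H2-Eb1 158 of 231 and 19.4 of 34. For H2-Aa it gave 173 of 252 after CpG ODN, and 21.1 against the 21 counted after LPS. For every 100 UMIs of Cd74, epithelial-like cells after LPS held 108 of H2-Ab1 and 96.6 of H2-DMa, where B-lineage cells held 26.5 and 3.45. After CpG ODN they held 30.6 of H2-Ab1 and 12.7 of H2-DMa, against 27.0 and 4.13 in B-lineage cells, so H2-Ab1 was then close to the B-lineage proportion. H2-DMa and H2-DMb1 were spread thinly, with at most 2 UMIs a cell after LPS, and 55 of 958 cells held H2-DMa.

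**Figure D5:**
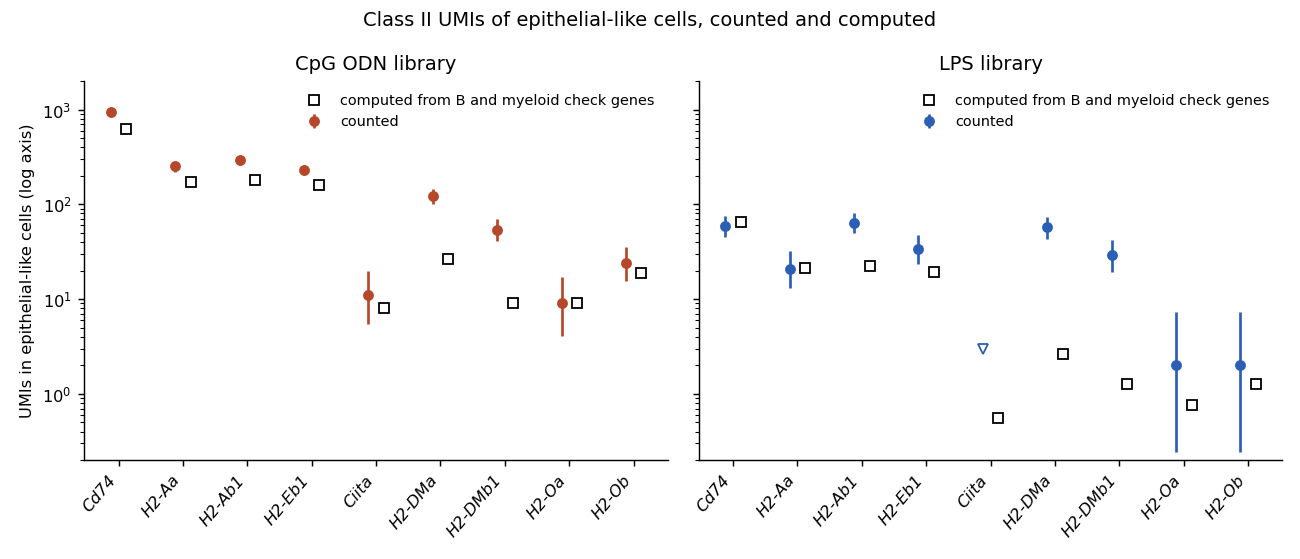
UMIs of each class II gene counted in epithelial-like cells (filled, with 95% Poisson intervals) and computed from their B and myeloid check genes (open squares), on a log axis, for the CpG ODN (left) and LPS (right) libraries; the open triangle marks the 3 UMIs that a count of 0 allows. Counts of H2-Ab1, H2-Eb1, H2-DMa and H2-DMb1 and their intervals lie above the computed values in both libraries. Those of Cd74 and H2-Aa do so after CpG ODN only.

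Among epithelial clusters, H2-Ab1 outnumbered Cd74 in both libraries in the cells led by H19 and Krt15 (62 and 53 cells). There the CpG ODN library gave 9 UMIs of it (8 cells) and the LPS library 12 (11 cells), where Cd74 had 2 and 1. After LPS H2-Ab1 outnumbered Cd74 in other clusters too, such as those led by Krt4 (13 against 6 UMIs) and by Anln (12 against 5). The cluster with the highest Cd74 after CpG ODN, led by Krt10, Krt24 and Serpinb12, had 348 UMIs in 20 of 336 cells after CpG ODN, of which 267 were in 1 cell, and 4 in 4 of 64 cells after LPS. A further 32 CpG ODN cells and 1 LPS cell with epithelial leading genes clustered with the immune cells and were set apart: the 32 held 744 Cd74 UMIs and 16 of Ciita beside 671 UMIs of B check genes, and with them the summed epithelial ratio was 6.67.

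Simple epithelial-like cells (100 and 69), with Krt7, Krt8 and Krt18 and gland genes, held H2-Ab1 in 19 of 100 cells after CpG ODN (30 UMIs, 23.2 CPM, 15.7 to 33.2) and in 8 of 69 after LPS (9 UMIs, 5.73 CPM, 2.62 to 10.9), a ratio of 4.05 (1.88 to 9.71). With 91 and 51 cells free of check genes, it had 20 and 7 UMIs (2.41, 0.977 to 6.73). Thinned to 1500 UMIs, 4.92% of the CpG ODN cells and 1.00% of the LPS cells held H2-Ab1, against 0.849% of T-like cells after CpG ODN, which rests on 1 UMI, and 0 UMIs in those after LPS. Cd74 had 29 UMIs after CpG ODN, 21 of them in 1 cell, and 13 after LPS. H2-DMb1 had 5 and 10 UMIs, each in a cell of its own. Ciita had 0 in both libraries, which allows up to 2.32 and 1.91 CPM. In the LPS library the myeloid check was not usable in this class, because its genes summed to 1841 UMIs there.

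Fibroblast-like cells (238 and 54) held class II RNA mostly through 1 cell in each library. Cd74 had 33 UMIs after CpG ODN, 23 in 1 cell, and 24 UMIs after LPS, all in 1 cell. Of the 66 and 53 UMIs of the 4 abundant genes, 59.1% and 90.6% came from 1 cell, which also held check genes. The 3 members with at least 20 UMIs (Cd74, H2-Aa and H2-Ab1) were each at least 1.5 times lower after CpG ODN, against 11% of genes, and the summed ratio of 0.658 (0.462 to 0.942) became 2.35 without those cells. In cells free of check genes the 4 abundant genes had 16 UMIs in 225 cells and 5 in 50 cells. H2-DMb1 had 8 UMIs in 8 cells and 3 in 2 cells, and Ciita, H2-Oa and H2-Ob had 0.

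Endothelial-like cells (49 and 24) held a little class II RNA in several cells. The 9 genes summed to 18 and 24 UMIs. Without the cell with the most in each library they summed to 13 and 13, a ratio of 0.835 (0.357 to 1.96). Cd74 had 9 UMIs in 5 of 49 cells after CpG ODN (40.0 CPM, 18.3 to 75.8) and 7 UMIs in 4 of 24 cells after LPS (38.7 CPM, 15.6 to 79.8). H2-Eb1 had 2 and 8 UMIs, H2-Ab1 4 and 4, H2-Aa 1 and 1, and H2-DMb1 1 and 4. B check genes had 1 UMI after CpG ODN and 0 after LPS in these cells, and myeloid check genes 4 and 1. Of the Cd74 UMIs, 3 of the 9 and 7 of the 7 lay in cells without a check gene. Without cells holding any check gene, the 4 abundant genes had 9 UMIs in 43 cells and 20 UMIs in 23 cells. Thinned to 1500 UMIs, 5.48% and 7.75% of the cells held Cd74, against 3.15% and 0% of T-like cells, counts too small to tell apart. Ciita and H2-DMa had 0 in both libraries, no member reached 20 UMIs, and the summed ratio of 0.602 (0.308 to 1.16) included 1. The interval left out 1 in the cells without check genes (0.438, 0.193 to 0.928) and with 1200 detected genes required (0.416, 0.184 to 0.882). In cells chosen by signature genes the ratio turned to 2.31 (2.13 to 2.51). That set held 2730 and 745 UMIs of the 9 genes in 96 and 32 cells, so it is not a like set of cells. In mural-like cells after CpG ODN, 97.3% of the 110 UMIs of the 4 abundant genes came from 1 of 76 cells, and after LPS the 22 cells held 3.

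Other genes of the pathway were read in B-like cells from lists by role, with 20 UMIs required. Of the promoter-binding factors, 4 of 7 could be read (Rfxap, Creb1, Nfyb and Nfyc), and 0 were 1.5 times lower or higher. H2-DMb2 stood at 453 and 566 CPM (ratio 0.800, 0.651 to 0.988) and H2-Eb2 at 143 and 131 CPM (1.09, 0.720 to 1.69). Of 6 proteases and reductases that cut antigen or the invariant chain, 4 could be read, with Ctss, the protease that trims Cd74 in B cells, lowest at 274 and 338 CPM (0.809, 0.620 to 1.07) and Ctsb highest at 34 and 6 UMIs (1.97, 0.819 to 5.75). March1, the ligase that removes class II molecules from the surface, stood at 97.0 and 152 CPM (0.638, 0.419 to 0.986), and Cd83, which opposes it, at 392 and 363 CPM (1.08, 0.845 to 1.40).

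Of the interferon-γ input genes, Jak2, a kinase of the receptor, had the lowest ratio (0.475, 0.204 to 1.14), on under 30 UMIs in each library, and its interval included 1. Ifng itself had 0 UMIs in T-like cells of both libraries. The co-stimulatory genes had ratios below 1 in B-like cells, of which the interval of Cd86 alone left out 1: Cd86 stood at 54.4 and 106 CPM (0.515, 0.302 to 0.893), Cd40 at 41.2 and 67.6 CPM (0.609, 0.319 to 1.21) and Icosl at 52.9 and 84.5 CPM (0.627, 0.353 to 1.14). All 3 that could be read of 4 were thus at least 1.5 times lower, where 11.8% of genes were, on 16 to 37 UMIs a library. Cd86 was lower after CpG ODN in Ccl4-led cells too, at 140 and 460 CPM (0.304, 0.129 to 0.709).

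In epithelial-like cells all 7 promoter-binding factors could be read and 0 were 1.5 times higher or lower, while Ctss, which immune cells carry, had 38 UMIs after CpG ODN (14 in 1 cell) and 1 after LPS. Ifi30, the thiol reductase of endosomes, was at 46.2 and 42.6 CPM there.

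Over the 23 clusters with at least 20 cells (libraries pooled, log2 of CPM plus 1), the non-members whose level was most like the mean of Cd74, H2-Aa, H2-Ab1 and H2-Eb1 by Pearson's r were Dok3 (r = 0.984), Iglc3 (0.975), Igkc (0.971), Cd79a (0.970) and Napsa (0.965). Among the members, H2-Aa (0.989), H2-Ab1 (0.981), Cd74 (0.979) and H2-Eb1 (0.960) lay close to the mean they make up, followed by Ciita (0.919), H2-Oa (0.828), H2-Ob (0.804), H2-DMb1 (0.788) and H2-DMa (0.759). The cut of 20 cells left out, among other small clusters, the macrophage-like (15 and 2), Ccl4-led (12 and 3) and Retnlg-led cells (3 and 8). The class with the highest class II level was therefore not compared, and B-lineage cells were the main carriers left. Whether B cell genes would lead without the cut was not tested. These values are descriptions of clusters that share libraries, cell depth and immune cell content.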

How the data were processed

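Palatal gingiva was measured in 1 library per ligand, with 4 mice combined in each. The authors deposited filtered UMI counts per gene and barcode made with Cell Ranger 4.0.0, as the file headers give; the genome build is not given in the sources used here, and Seurat is named in the submitters' processing notes. Gene positions came from GENCODE by gene ID, and promoters from RefSeq.

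Cells with at least 800 detected genes, the filter of the study's methods, were kept. Counts scaled to 10000 a cell were clustered (Python 3.11.15, scanpy 1.11.5, leidenalg 0.10.2, 2000 variable genes, 30 components, 15 neighbours, resolution 1) with the class II genes held out. A class needed 3 markers, and its members' UMIs were summed and scaled to 1000000 (CPM). The immune cluster of mixed content was divided further. The 24 clusters were rebuilt here, so classes may differ from those of the study. Doublets were not removed: Scrublet called 22 of 4888 and 3 of 1277 cells, too few to count as having worked. All 9 members and the genes at the ends of each pathway list were named, and the 5 genes most like the 4 abundant members by correlation. One result of a pathway list is not reported here. Background shares used genes with at least 20 UMIs over both libraries. Scripts were tested on simulated data. PCR reads were collapsed by UMI, and intervals (scipy 1.17.1) cover counting error only. Members and lists were chosen with earlier results of these data known. Alternatives tried were the filter on genes, the scaling, the clustering resolution, signature genes, and leaving out doublets, single cells and cells with check genes.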

Additional observations from a re-analysis of the deposited data

Results flagged for a closer look

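Barcodes under 800 detected genes, which no comparison above used, also held class II RNA, more than the 3 UMIs that a count of 0 allows. In the 1331 such barcodes of the CpG ODN library, Cd74, H2-Aa, H2-Ab1 and H2-Eb1 summed to 22594 UMIs or 13989 CPM (13808 to 14173), and 529 barcodes with at least 3 UMIs of B check genes held 98.4% of them. Ciita had 214 UMIs there, H2-Oa 272 and H2-Ob 425. In the 739 such barcodes of the LPS library the 4 genes summed to 368 UMIs or 245 CPM (221 to 271), 8 barcodes with B check genes held 56.0% of them, and Ciita had 1 UMI. Hemoglobin transcripts took 23.7% and 75.3% of the UMIs of these barcodes.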

How the results depend on the processing

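No paired analysis was possible because a single library stands for each treatment. Among the settings tried, the summed ratio of the 9 genes (CpG ODN/LPS) stayed below 1 in B-like cells: 0.551 with 1200 detected genes, 0.852 with 500 (734 and 72 cells, of which 452 and 3 were new), and, chosen after seeing the data, 0.724 with the median gene scaled to 1 and 0.555 joined with germinal-centre B-like cells. The single members Ciita (0.584 to 1.06), H2-DMb1 (0.533 to 1.10) and H2-Oa (0.342 to 1.04) crossed 1 over the settings, and the other 6 did not; with 1200 genes all 9 intervals lay below 1. In myeloid-like cells the ratio of 1.09 turned to 0.721 with 1200 genes, 0.708 with 500 and 0.739 at resolution 2, and to 0.858 in macrophage-like, 0.673 in Ccl4-led and 0.665 without Retnlg-led cells (the last 3 chosen after seeing the data); it was 1.35 as a mean over cells and 1.35 thinned, 2.79 by signature genes and 1.25 without the top cell, and resolution 0.5 gave no myeloid class. In epithelial-like cells it was 3.82, and 5.46 with 500 genes, 3.32 as a mean over cells, 3.32 thinned, 6.61 at resolution 0.5 and 6.61 at resolution 2, 2.79 without called doublets, 3.08 without the top cell, 1.44 without check gene cells and, chosen after seeing the data, 6.67 with the set-apart cells and 1.41 without cells of 10 or more UMIs. In fibroblast-like cells 0.658 turned to 7.02 by signature genes, 2.35 without the top cell, 1.66 without check gene cells and 2.35 without cells of 10 or more UMIs, and in endothelial-like cells 0.602 became 2.31 by signature genes. The cause of these changes was not tested. Of the other values of these ratios, 26 kept their direction and lay within the interval of the value reported, but the endothelial interval left out 1 at 0.416 with 1200 genes and 0.438 without check gene cells, and the fibroblast interval came to include 1 at 0.727 with 1200 genes. Thinning gives the mean over cells by construction, apart from the cells under 1500 UMIs it leaves out, and is no separate check. The small numbers of myeloid-like and endothelial-like cells, and of germinal-centre B-like LPS cells (4), limit their values.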
